A study of Mus musculus with 6 samples.

Results

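The genes described here are 10 genes of MHC class I antigen presentation and peptide processing, H2-K1, H2-D1, B2m, Tap1, Tap2, Tapbp, Psmb8, Psmb9, Psmb10 and Nlrc5, chosen by name from 14499 genes measured by RNA-seq in mouse liver. Each name matched a single row, and all 10 were among the 11839 genes tested after a filter on low values. The samples were 3 libraries from livers in which Arid1a was knocked out in hepatocytes and 3 libraries from wild-type livers. All were of a mixed C57Bl/6 and 129Sv background, at 10 weeks of age. All were injured for 2 weeks with DDC, a compound that disturbs heme synthesis and injures bile ducts. The ARID1A protein is part of the BAF complex, which remodels chromatin, and the question was which transcripts of the injured liver depend on it. No uninjured liver was analysed here, so the levels are those of injury in both genotypes. The sources used here do not give the driver of the Cre recombinase, nor whether the libraries are from different mice. By the Y-linked genes given below, replicate 1 of each group differs in sex from replicates 2 and 3, and so comes from another mouse. For replicates 2 and 3 this is not known. The spread behind each p-value is that between libraries and may be in part technical.

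MHC class I molecules display peptides from inside the cell to CD8 T cells. The proteasome cuts proteins into peptides, and under interferon-gamma its catalytic subunits are exchanged for the immunoproteasome subunits that Psmb8, Psmb9 and Psmb10 encode. The TAP transporter carries the peptides into the endoplasmic reticulum, where tapasin loads them onto a heavy chain paired with beta-2 microglobulin. Nlrc5 encodes the transactivator that drives class I genes through the conserved X and Y boxes of their promoters, while interferon and NF-kappa-B act through separate elements. Hepatocytes carry little class I at rest compared with leukocytes and sinusoidal cells, and inflammation raises it.

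The promoter elements through which these signals are known to act are shown for the heavy chain genes and B2m, since these sequences carry the class I arrangement. RefSeq windows on GRCm38.p6, from 250 bases before to 50 after the start site, were found for 8 of the 10 genes; Tap2 and Nlrc5 are named only. H2-K1 lies on the minus strand, and the 250 bases before its start site are chr17:34000348-34000597. B2m lies on the plus strand, and the corresponding bases are chr2:122147437-122147686. Capitals mark every match to the motifs searched, and both sequences run 5′ to 3′ on the gene's strand.
H2-K1: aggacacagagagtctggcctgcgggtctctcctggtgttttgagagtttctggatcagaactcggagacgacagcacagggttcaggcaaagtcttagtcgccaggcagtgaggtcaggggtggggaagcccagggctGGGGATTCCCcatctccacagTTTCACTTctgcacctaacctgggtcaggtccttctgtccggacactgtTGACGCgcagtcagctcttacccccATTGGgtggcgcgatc
B2m: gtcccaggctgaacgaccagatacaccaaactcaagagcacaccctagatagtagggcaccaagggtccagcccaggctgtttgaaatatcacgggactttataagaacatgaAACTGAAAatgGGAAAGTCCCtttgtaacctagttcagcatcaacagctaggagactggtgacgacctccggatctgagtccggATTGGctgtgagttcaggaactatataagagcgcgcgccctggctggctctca
The motifs were searched on both strands as AANNGAAA for the core of an interferon response element, TTCNNNGAA for a gamma-activated site, GGG, 2 free bases, TT, 1 free base and CC for a kappa-B site, TGACGC for the core of an X2 box and ATTGG for the core of a Y box, and no match overlapped a match to another motif in the sequences printed.

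H2-K1 and H2-D1 shared the same order of matches, kappa-B site, interferon core, X2 box, Y box and a second Y box on the other strand. The stretch from the kappa-B match to the end of the interferon core was 29 bases long in each, at chr17:34000430-34000458 in H2-K1 and chr17:35262923-35262951 in H2-D1, and differed at 1 position.
H2-K1 kappa-B to interferon core: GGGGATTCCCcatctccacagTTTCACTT
H2-D1 kappa-B to interferon core: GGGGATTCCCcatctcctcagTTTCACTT
The stretch from the X2 match to the first Y match was 30 bases long in each, at chr17:34000359-34000388 and chr17:35262993-35263022, and differed at 7 positions.
H2-K1 X2 to Y: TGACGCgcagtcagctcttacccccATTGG
H2-D1 X2 to Y: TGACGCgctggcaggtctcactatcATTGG
B2m had the interferon core and the kappa-B match in the other order, within 21 bases at chr2:122147550-122147570, with no X2 match to these letters.
B2m interferon core to kappa-B: AACTGAAAatgGGAAAGTCCC

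Across the 8 windows a kappa-B match was found in 3, against 4.79% of the 32851 windows of the RefSeq table, and an X2 match in 2, against 7.4%. The interferon core was found in 3 windows, against 23.9%, a Y match in 6, against 37.4%, and a gamma-activated site in 1, that of Psmb8, against 8.3%. H2-K1 and H2-D1 are paralogs, so their matches are not separate observations. Tap1 and Psmb9, which encode the first TAP subunit and the beta-1i subunit, are transcribed away from each other from RefSeq start sites 226 bases apart, and their windows share 275 bases. The Y match of Tap1 and that of Psmb9 are the same bases read on opposite strands. A match describes these letters only, and its absence says nothing of a factor.

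**Figure D1:**
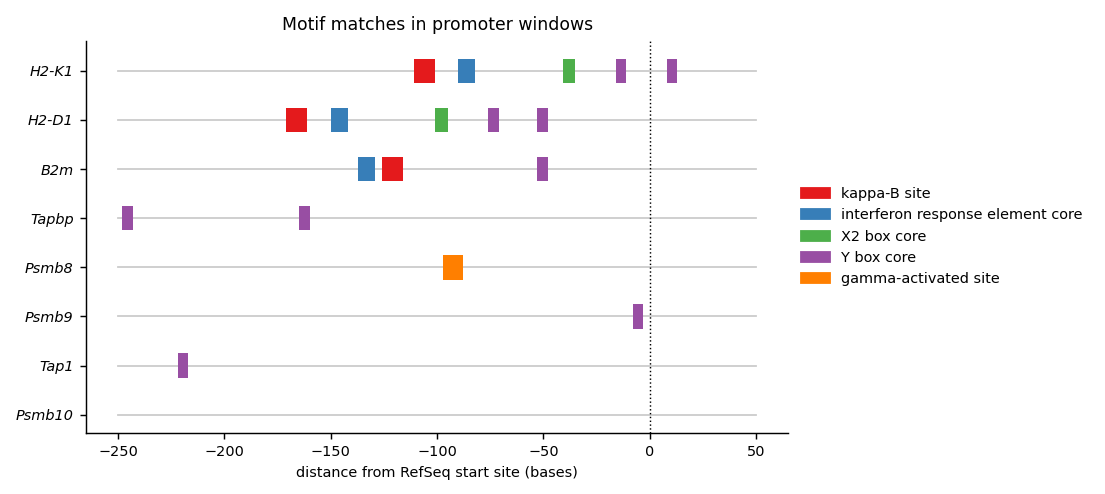
Motif matches in the promoter windows of 8 genes, as coloured boxes drawn to scale against the distance from the RefSeq start site in bases. H2-K1 and H2-D1 carry the same order of matches, B2m has the kappa-B and interferon core matches side by side, and Psmb10 has no match.

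Between 11280 and 11712 genes per library had at least 1 FPKM (fragments scaled to transcript length and to the mapped fragments of the library), and depth relative to WT_DDC replicate 1 was estimated at 0.889 to 1.14; absolute depth is unknown. Arid1a itself was at 6.61, 5.01 and 3.81 FPKM in knockout livers and at 7.85, 5.48 and 5.98 FPKM in wild-type livers, so the groups overlapped (log2 difference -0.29, SE 0.22, limma adjusted p = 0.678). The knockout labels are therefore not borne out by the level of this transcript. Exons that may lie outside the deletion, and other liver cells, can also enter the value, and their part was not tested. Replicate 1 of both groups stood apart from the other libraries: Ddx3y, a Y-linked gene, was at 0.0227 FPKM in the knockout library and 0.0527 FPKM in the wild-type library, against 9.27 to 11.3 FPKM in replicates 2 and 3. Eif2s3y, also Y-linked, was at 0.041 and 0.19 FPKM in the same order, against 22.4 to 26.6 FPKM. Sex, as read from these genes, and library number (L0566 and L0567 against L0602 to L0605) divide the libraries in the same way and cannot be told apart. Each of the 10 genes is therefore given below also from replicates 2 and 3 alone. The hepatocyte markers were high in all libraries, as a liver sample should show, with summed levels of 45687 to 56399 FPKM in knockout livers and 43009 to 44801 FPKM in wild-type livers. Every knockout sum thus lay above every wild-type sum.

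All 10 genes had a lower mean in knockout than in wild-type livers, by small amounts, and none passed the test. The 10 log2 differences, on the log2(FPKM + 1) scale, lay between -0.61 and -0.11 with a median of -0.31, against a median of 0.0034 over all genes tested. By limma with Benjamini-Hochberg adjustment over all genes, 0 of 10 were lower at an adjusted p under 0.05, where 0.355% of all genes tested were, and 0 were higher, against 0.135%. At an unadjusted p under 0.05, 2 of the 10 were lower, against 6.5% of all genes, and the same 2, Psmb9 and Tap2, were found with robust variance estimation and without the variance trend. That count was 0 in replicates 2 and 3 alone, 0 without Arid1a_KO_DDC replicate 3 and 1 without WT_DDC replicate 2. A negative difference was found for 10 of 10, against 49.4% of all genes. The 10 genes were measured in the same 6 libraries and in part share regulators, so their signs are not separate observations. The highest of the 6 libraries was a wild-type one for 10 of 10 genes, and the lowest was a knockout one for 10 of 10. How many of all genes have this order was not counted, so these 2 counts are description only. The groups did not overlap for 3 genes, Psmb9, Tap2 and Tapbp, against 9.56% of all genes with all knockout libraries below all wild-type libraries; no member had the opposite order, found for 7.09% of all genes. Without Arid1a_KO_DDC replicate 1 the median was -0.169, and in replicates 2 and 3 alone it was -0.235.

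The levels of the 10 genes, which are per length, spanned a wide range. B2m was highest, at 2807 to 5143 FPKM over the 6 libraries, followed by H2-D1 at 307 to 511 FPKM, Tapbp at 77.5 to 91.5 FPKM, Psmb8 at 37.3 to 68.4 FPKM and Psmb10 at 39.7 to 54.0 FPKM. Psmb9, H2-K1, Tap1, Tap2 and Nlrc5 followed, with means over the 6 libraries of 18.9, 17.8, 13.7, 13.6 and 9.57 FPKM. The ranges of Psmb8 and Psmb10 overlapped, as did those of each neighbouring pair from Psmb9 down to Nlrc5. The ranges of B2m and H2-D1, of H2-D1 and Tapbp, of Tapbp and Psmb8 and of Psmb10 and Psmb9 did not overlap.

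**Figure D2:**
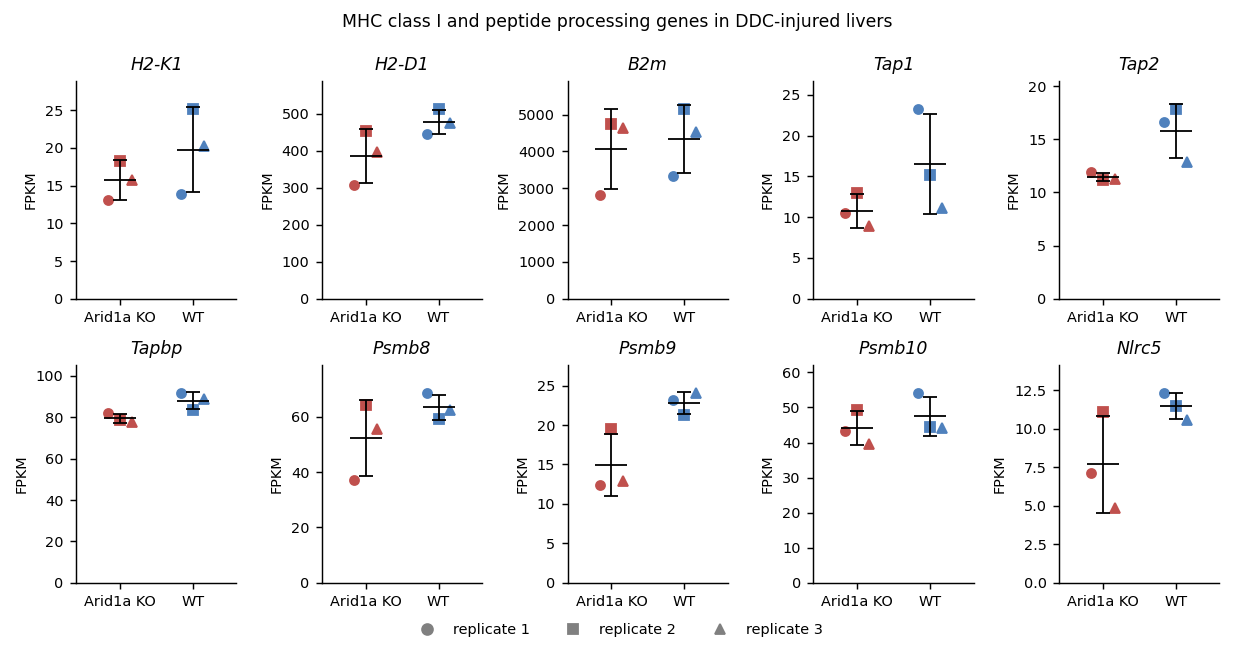
FPKM of the 10 genes in each library, knockout libraries in red and wild-type libraries in blue, with symbols for the replicate number, the mean as a bar and the SD as whiskers (n = 3 libraries per group, each axis from 0). Psmb9, Tap2 and Tapbp have groups that do not overlap, and the highest point of each panel is a wild-type library.

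Of the peptide-binding complex, the heavy chain H2-D1 was at 307, 453 and 396 FPKM in knockout livers and at 445, 511 and 474 FPKM in wild-type livers. Knockout replicate 1 was the lowest library, and knockout replicate 2 reached above wild-type replicate 1, so the groups overlapped. The means were 385 ± 73.3 FPKM in knockout and 477 ± 33.2 FPKM in wild-type livers (SD, n = 3 libraries each), a log2 difference of -0.32 (95% interval -0.75 to 0.11, limma adjusted p = 0.571). It was -0.17 without Arid1a_KO_DDC replicate 1 and -0.22 in replicates 2 and 3 alone.

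H2-K1, the second classical heavy chain of these strains, was at 13.1, 18.3 and 15.8 FPKM in knockout livers and at 13.9, 25.1 and 20.3 FPKM in wild-type livers. Replicate 1 was the lowest library of both groups, and wild-type replicate 1 lay below 2 of the 3 knockout libraries. The log2 difference was -0.29 (95% interval -0.84 to 0.27, limma adjusted p = 0.705), -0.10 without WT_DDC replicate 2, -0.17 without Arid1a_KO_DDC replicate 1 and -0.51 without WT_DDC replicate 1. In replicates 2 and 3 alone it was -0.39. Of all 50-base windows of the longest coding transcript, 8.79% for H2-K1 and 14.3% for H2-D1 also occur in transcripts of other genes, most often of H2-D1 for H2-K1 and of H2-Q1 for H2-D1. How the reads from such stretches were shared is not given in the sources used here, so both levels, and the gap of H2-K1 to H2-D1, are uncertain.

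B2m, the light chain common to all class I molecules, was at 2807, 4745 and 4648 FPKM in knockout livers and at 3337, 5143 and 4530 FPKM in wild-type livers. Replicate 1 was low in both groups, and the groups overlapped almost fully. The log2 difference was -0.11 (95% interval -0.78 to 0.56, limma adjusted p = 0.917), and its sign turned without Arid1a_KO_DDC replicate 1 (0.14) or without WT_DDC replicate 2 (0.025). In replicates 2 and 3 alone it was -0.039. None of the 50-base windows of B2m occurs in another gene's transcripts.

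Of the peptide transporter, Tap2 was at 11.9, 11.2 and 11.3 FPKM in knockout livers and at 16.6, 17.8 and 12.9 FPKM in wild-type livers. The knockout libraries lay within a narrow band below all wild-type libraries, of which replicate 3 came closest. Its log2 difference was -0.41 (95% interval -0.78 to -0.051, unadjusted p = 0.031 and adjusted p = 0.385 by limma). It was -0.40 in replicates 2 and 3 alone.

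Tap1, the partner subunit of Tap2, was at 10.5, 13 and 8.87 FPKM in knockout livers and at 23.2, 15.2 and 11.1 FPKM in wild-type livers. Wild-type replicate 1 was the highest library and wild-type replicate 3 lay within the knockout range. On the log2 scale the difference was -0.53 (95% interval -1.18 to 0.12, limma adjusted p = 0.538), with -0.26 without WT_DDC replicate 1 and -0.25 in replicates 2 and 3 alone. Tapbp, which encodes tapasin, was at 82.0, 78.8 and 77.5 FPKM in knockout livers and at 91.5, 83.4 and 88.9 FPKM in wild-type livers. Its groups did not overlap, but the gap was small, with a log2 difference of -0.14 (95% interval -0.43 to 0.14, limma adjusted p = 0.704), and -0.14 also in replicates 2 and 3 alone.

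Of the immunoproteasome subunits, Psmb9, the beta-1i subunit, had the most negative difference of the 10 genes. It was at 12.4, 19.5 and 12.9 FPKM in knockout livers and at 23.2, 21.3 and 24 FPKM in wild-type livers. All knockout libraries lay below all wild-type libraries, and knockout replicate 2 came closest to them. The means were 14.9 ± 3.96 FPKM in knockout and 22.8 ± 1.41 FPKM in wild-type livers (SD, n = 3 libraries each), a ratio of 0.653. The log2 difference was -0.61 (95% interval -1.06 to -0.15, unadjusted p = 0.016 and adjusted p = 0.305 by limma), -0.48 in replicates 2 and 3 alone, and -0.80 to -0.50 with 1 library left out. Psmb9 and Tap1 overlap by 212 bases on opposite strands in GENCODE M21, and the labels do not say whether the counting used strand, so reads in that stretch cannot be assigned to either with certainty.

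Psmb8, the beta-5i subunit, was at 37.3, 64.1 and 55.4 FPKM in knockout livers and at 68.4, 59.2 and 62.4 FPKM in wild-type livers. Knockout replicate 1 stood low, and knockout replicate 2 lay within the wild-type range. Its log2 difference was -0.30 (95% interval -0.81 to 0.20, limma adjusted p = 0.649), with -0.083 without Arid1a_KO_DDC replicate 1 and -0.027 in replicates 2 and 3 alone. Psmb10, the beta-2i subunit, was at 43.3, 49.3 and 39.7 FPKM in knockout livers and at 54.0, 44.3 and 44.2 FPKM in wild-type livers. The groups overlapped, with a log2 difference of -0.11 (95% interval -0.46 to 0.25, limma adjusted p = 0.835), and -0.00057 in replicates 2 and 3 alone.

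Nlrc5, the class I transactivator, was at 7.15, 11.1 and 4.85 FPKM in knockout livers and at 12.3, 11.5 and 10.6 FPKM in wild-type livers. The knockout libraries varied more than the wild-type ones, with a coefficient of variation of 41.0% against 7.44%, and knockout replicate 2 lay within the wild-type range. The log2 difference was -0.58 (95% interval -1.20 to 0.042, limma adjusted p = 0.481), -0.33 without Arid1a_KO_DDC replicate 3, -0.85 without Arid1a_KO_DDC replicate 2 and -0.52 in replicates 2 and 3 alone.

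The immunoproteasome subunits were set against the constitutive subunits they replace, since the ratio of FPKM within a library does not depend on that library's scaling. For the log2 ratios of FPKM + 1 given below, this holds only approximately. Psmb5, Psmb6 and Psmb7, which encode the constitutive beta-5, beta-1 and beta-2 subunits, had log2 differences of 0.16, 0.23 and 0.19, and none passed (limma adjusted p = 0.711, 0.602 and 0.622). Psmb5 and Psmb7 were higher in every knockout library than in any wild-type one, an order found for 7.09% of all genes. The ratios therefore hold differences of both subunits of a pair. Psmb9 was at 0.062, 0.0801 and 0.0564 of the FPKM of Psmb6 in knockout livers and at 0.129, 0.113 and 0.118 in wild-type livers. Every knockout library lay below every wild-type library in this ratio.

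Psmb8 was at 0.641, 0.858 and 0.890 of the FPKM of Psmb5 in knockout livers and at 1.18, 1.02 and 1.09 in wild-type livers. Psmb8 was thus below its counterpart in each knockout library and above it in each wild-type library. Psmb10 was at 0.351, 0.377 and 0.284 of the FPKM of Psmb7 in knockout livers and at 0.453, 0.391 and 0.396 in wild-type livers. The groups did not overlap here either, with knockout replicate 2 close to the lowest wild-type library.

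As log2 ratios of FPKM + 1, Psmb9 to Psmb6 averaged -3.84 ± 0.24 in knockout and -3.00 ± 0.10 in wild-type livers, Psmb8 to Psmb5 averaged -0.34 ± 0.25 and 0.13 ± 0.10 in the same order, and Psmb10 to Psmb7 averaged -1.56 ± 0.21 and -1.26 ± 0.12 (SD, n = 3 libraries each). The differences were -0.84, -0.47 and -0.30. Each of the 3 pairs gave an exact two-sided permutation p of 0.1, also 0.1 adjusted over the 3 pairs, which is the smallest that 3 against 3 libraries allow, so this design cannot pass 0.05. In replicates 2 and 3 alone the differences were -0.76, -0.27 and -0.26. There Psmb9, Psmb8 and Psmb10 by themselves had -0.48, -0.027 and -0.00057, and Psmb6, Psmb5 and Psmb7 had 0.27, 0.24 and 0.26. In these libraries the gaps of the Psmb8 and Psmb10 pairs thus lay almost wholly in the constitutive subunits. Without Arid1a_KO_DDC replicate 3 the difference of Psmb10 to Psmb7 was -0.18. How often the ratios of other gene pairs separate the groups in this way was not counted. The part of the mix of cells in these ratios was not tested.

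**Figure D3:**
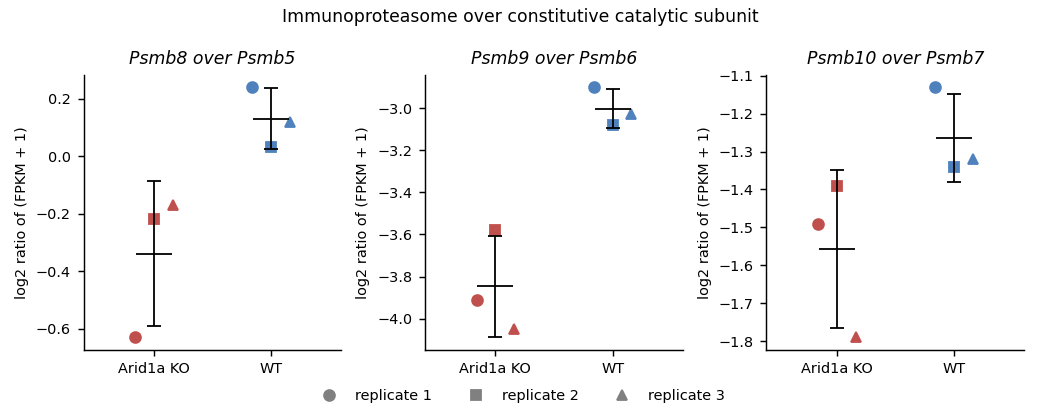
Log2 ratio of each immunoproteasome subunit to the constitutive subunit it replaces, per library, with knockout libraries in red and wild-type libraries in blue, symbols for the replicate number, the mean as a bar and the SD as whiskers (n = 3 libraries per group). In all 3 pairs the knockout libraries lie below the wild-type libraries, by -0.84 for Psmb9 to Psmb6, -0.47 for Psmb8 to Psmb5 and -0.30 for Psmb10 to Psmb7.

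The other genes of the pathway were taken from lists by role. Of 11 tested heavy chain genes of the H2 region other than the members, 0 passed by limma (at an unadjusted p under 0.05, 0 were lower and 1 higher), 7 had a negative difference and the median was -0.20. That 1 was H2-T24, a non-classical class I gene, which was at 2.96, 3.22 and 2.30 FPKM in knockout livers and at 1.39, 1.17 and 1.04 FPKM in wild-type livers, and whose groups were apart (log2 difference 0.79, SE 0.16, limma adjusted p = 0.130). H2-T23, which encodes Qa-1, a ligand of inhibitory receptors on NK cells, was at 179, 242 and 224 FPKM in knockout livers and at 149, 172 and 170 FPKM in wild-type livers (0.38, SE 0.16, limma adjusted p = 0.448). Both were thus higher in every knockout library, opposite in sign to the 10 members.

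H2-Q1 and H2-Q5, of the neighbouring Q region, had differences of -0.82 and -0.70 that did not pass (limma adjusted p = 0.458 and 0.505). Wild-type replicate 1 was the highest library of both, and in replicates 2 and 3 alone the differences were -0.43 and -0.41. H2-Q10, a secreted class I molecule made by hepatocytes, was at 715, 731 and 878 FPKM in knockout livers and at 869, 904 and 713 FPKM in wild-type livers. Its groups overlapped widely (log2 difference -0.10, 95% interval -0.50 to 0.31). Of 6 tested class I-like genes elsewhere in the genome, 0 passed by limma, 0 had an unadjusted p under 0.05 and 6 had a negative difference. Mr1, which presents vitamin B metabolites, had -0.45, Fcgrt, the neonatal Fc receptor, -0.21, Cd1d1, which presents lipids, -0.34, and Azgp1 -0.18. The sign of Cd1d1 turned in replicates 2 and 3 alone (0.10).

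Of 10 tested helpers of peptide trimming and loading, 0 passed by limma, 1 was lower and 1 higher at an unadjusted p under 0.05, and the median was -0.044. Tapbpl, which encodes the tapasin-related editor TAPBPR, was at 10.7, 6.85 and 7.26 FPKM in knockout livers and at 16.8, 13.5 and 12.3 FPKM in wild-type livers, and every knockout library lay below every wild-type one (log2 difference -0.73, SE 0.20, limma adjusted p = 0.259). Thop1, a cytosolic peptidase that degrades antigenic peptides, was higher in every knockout library (0.50, SE 0.14, limma adjusted p = 0.268). The chaperone Canx and the glucosidase subunit Ganab had 0.41 and 0.15. Knockout replicate 2 stood high for Canx, at 179 FPKM, and without it the difference was 0.14.

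Of 7 tested proteasome activators and assembly factors, 0 passed by limma, and 1 was lower and 0 higher at an unadjusted p under 0.05. Ubd, which encodes the ubiquitin-like modifier FAT10 that sends proteins to the proteasome, was at 18.3, 31.7 and 24.2 FPKM in knockout livers and at 58.4, 129 and 95.4 FPKM in wild-type livers. All knockout libraries lay below all wild-type libraries (log2 difference -1.85, SE 0.32, limma adjusted p = 0.0864), and Ubd passed in 1 of 17 alternatives, with a term that separates replicate 1 from replicates 2 and 3 (adjusted p = 0.0282). Over all 17 alternatives the adjusted p ran from 0.0282 to 0.293. The PA28 activator genes Psme1 and Psme2 had -0.23 and 0.22, and Psme3 had 0.14 (limma adjusted p = 0.646, 0.721 and 0.721).

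Upstream of the class I genes, several transcripts of the interferon-gamma pathway had lower mean levels in knockout livers, though none passed the test. Ifngr1, the ligand-binding chain of the interferon-gamma receptor, was at 14.5, 16.9 and 16.8 FPKM in knockout livers and at 27.2, 32.3 and 34.4 FPKM in wild-type livers. The groups were far apart (log2 difference -0.92, SE 0.15), and the limma adjusted p was 0.0659. It ran from 0.0347 to 0.264 over 17 alternatives, of which 2 passed, the library number term and quantile normalization. Irf1, an interferon-gamma induced activator of class I and immunoproteasome genes, was at 15.3, 20.4 and 17.8 FPKM in knockout livers and at 35.3, 30.1 and 32.2 FPKM in wild-type livers (-0.84, SE 0.15, limma adjusted p = 0.0944).

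Socs1, a feedback inhibitor of interferon signalling, was at 0.478, 1.06 and 0.789 FPKM in knockout livers and at 3.16, 1.82 and 2.29 FPKM in wild-type livers. Its groups did not overlap (log2 difference -0.94, SE 0.21, limma adjusted p = 0.157). Irf7, an activator of type I interferon genes, had the opposite sign, at 89.4, 155 and 119 FPKM in knockout livers and 35.3, 42.6 and 25.3 FPKM in wild-type livers (1.78, SE 0.26, limma adjusted p = 0.0543). Over 17 alternatives its adjusted p ran from 0.0439 to 0.207, and 5 passed. Of the 13 tested genes of the list, 0 passed by limma; at an unadjusted p under 0.05, 4 were lower and 1 higher, against 6.5% and 4.65% of all genes.

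The factors that bind the X and Y boxes had small differences of either sign. Of 9 tested RFX, NF-Y and CREB family genes with Ciita, 0 passed by limma, 1 was lower and 0 higher at an unadjusted p under 0.05, and the median was -0.0072. Ciita, the class II transactivator and closest relative of Nlrc5 in function, was at 0.255, 0.966 and 0.309 FPKM in knockout livers and at 1.64, 1.18 and 1.5 FPKM in wild-type livers (log2 difference -0.72, SE 0.22, limma adjusted p = 0.292). Ciita, the 1 gene of the list counted as lower, reached 1 FPKM in the wild-type libraries only. It thus passed the filter through the group where it is high, and its difference is given as description only. Rfx5, Nfya and Rfxap had -0.26, 0.17 and 0.21, and all 3 turned sign in replicates 2 and 3 alone.

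**Figure D4:**
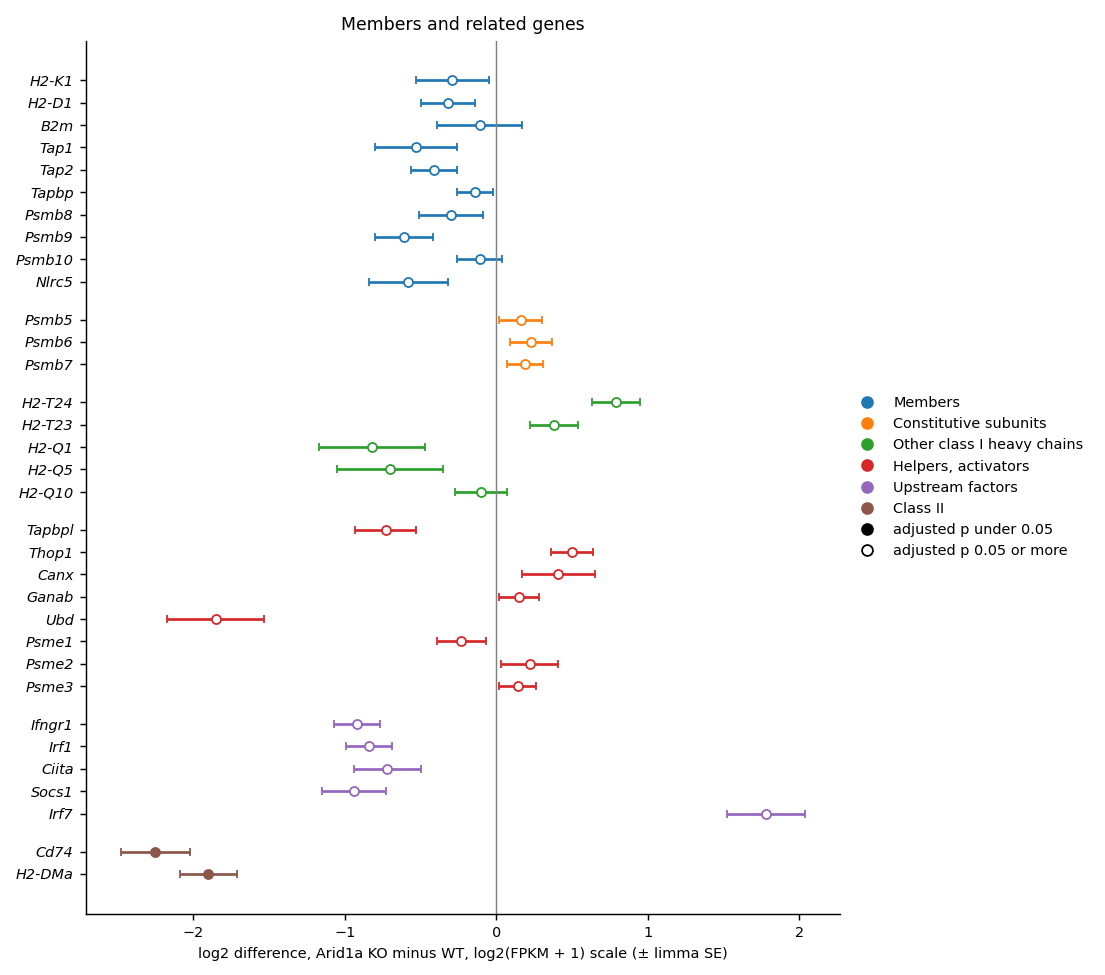
Log2 difference, knockout minus wild type, with limma SE, for the 10 genes at the top and for related genes grouped by role. Filled points passed an adjusted p of 0.05. The members lie between -0.61 and -0.11, the 3 constitutive subunits between 0.16 and 0.23, and Cd74 and H2-DMa, the filled points, at -2.25 and -1.90.

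Class II presentation and the interferon lists are the nearest sets to compare. MHC class II genes, which present to CD4 T cells, had 5 of 7 tested members lower at an adjusted p under 0.05 and a median of -1.90; Cd74 was at 183, 317 and 188 FPKM in knockout livers and at 1058, 1025 and 1100 FPKM in wild-type livers. Of 19 tested interferon-gamma induced genes 2 were called lower, Tgtp1 and Cxcl9, and the median was -0.55. Of 24 tested type I interferon-stimulated genes 5 were called higher, among them Isg15 and Ifit1, and the median was 1.23. Beside these the median of the 10 class I genes was -0.31; the difference between the lists was not tested. Without Arid1a_KO_DDC replicate 3, 0 genes in all were called by limma; 391 had a positive and 527 a negative difference with unadjusted p under 0.05. Tgtp1 has a near-identical neighbour, Tgtp2, so its own level is uncertain.

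Of the 10 genes, 7 lie in the H2 region of chromosome 17, between Tapbp and H2-D1 at positions 33915899 to 35267499 of GRCm38, and Psmb9, Tap1, Psmb8 and Tap2 lie side by side within it. The other 3 are B2m on chromosome 2 (122147686 to 122153083) and Nlrc5 (94434356 to 94527272) and Psmb10 (105935735 to 105938444) on chromosome 8. The 74 tested genes of the region held 7 members with a median of -0.32, 6 class II genes with a median of -1.89 and 61 other genes with a median of 0.0033. The block of Psmb9, Tap1, Psmb8 and Tap2 is flanked by H2-DMb1, H2-DMb2 and H2-DMa on one side and by H2-Ab1, H2-Aa and H2-Eb1 on the other. Both flanks had more negative differences, at -0.84, -1.58, -1.90, -2.02, -1.88 and -2.32, than the 4 genes between them, at -0.61, -0.53, -0.30 and -0.41. Of the 61 other genes 1 was called lower, H2-Ea-ps, a class II pseudogene named after its value was seen (-2.06, limma adjusted p = 0.0211).

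**Figure D5:**
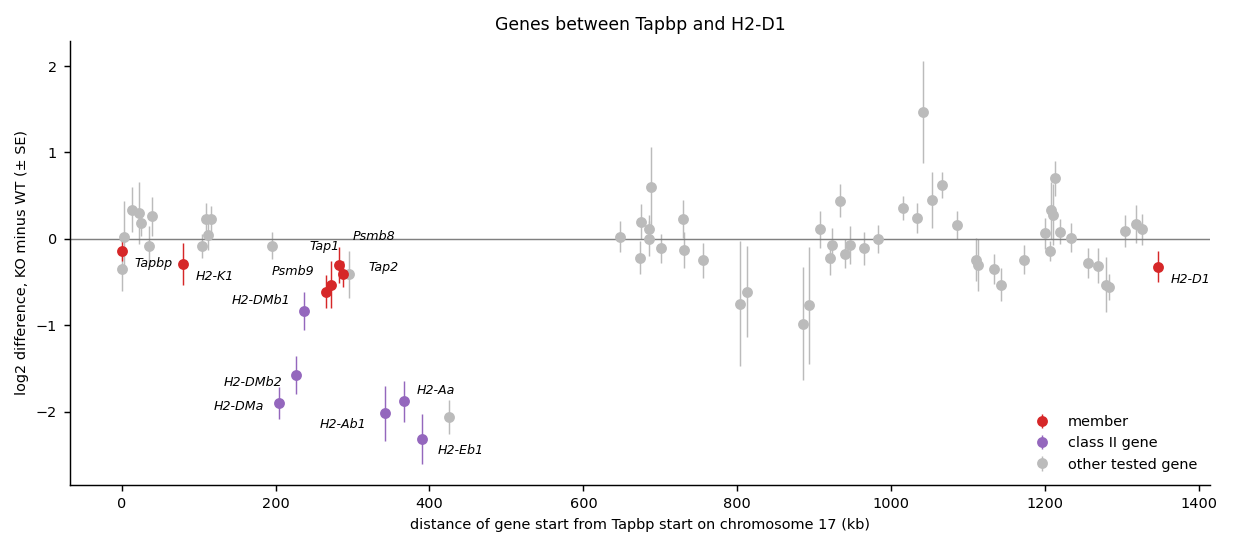
Log2 difference, knockout minus wild type, with limma SE, of each tested gene between Tapbp and H2-D1 on chromosome 17, against the distance of its annotated start from that of Tapbp in kb. Members are red, class II genes purple and other genes grey. The class II genes lie between -2.32 and -0.84, and the members of the region between -0.61 and -0.14.

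All 10 genes are also expressed by leukocytes, and in total liver RNA fewer cells of a type and less RNA per cell cannot be told apart. Of 7 tested general leukocyte markers 0 passed by limma, 2 were lower at an unadjusted p under 0.05 and all 7 differences were negative. Their median was -0.63, with a summed level of 123 to 221 FPKM in knockout livers and 239 to 340 FPKM in wild-type livers. Of 9 tested macrophage markers 8 were negative, with sums of 378 to 565 FPKM in knockout and 547 to 840 FPKM in wild-type livers. T cell markers were near the limit of the table, with 5 of 5 tested members negative, sums of 2.67 to 9.29 FPKM in knockout and 13.4 to 19.1 FPKM in wild-type livers, and Trac listed at 0 in knockout replicate 3. Dendritic cell markers summed to 5.48 to 7.53 FPKM in knockout and 9.48 to 11.0 FPKM in wild-type livers.

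NK and cytotoxic cell markers summed to 2.90 to 16.5 FPKM in knockout and 8.96 to 13.1 FPKM in wild-type livers, and B cell markers to 0.959 to 8.93 and 3.71 to 4.35 FPKM, so these overlapped. Sinusoidal endothelial markers summed to 39.3 to 98.5 FPKM in knockout and 66.8 to 112 FPKM in wild-type livers, stellate cell markers to 108 to 180 and 157 to 267 FPKM, and biliary markers to 217 to 429 and 135 to 397 FPKM. Of the tested markers, 8 of 8 sinusoidal ones were negative (median -0.40), 7 of 9 stellate ones (median -0.56) and 6 of 7 biliary ones (median -0.61). Among the biliary markers 1 was called lower, with a limma adjusted p of 0.0386. Hepatocyte markers went the other way, with 9 of 11 tested ones positive (median 0.15). Of these 11, 0 passed by limma, and 2 were higher at an unadjusted p under 0.05. The part of any of these cells in the lower class I levels was not tested. Knockout replicate 2, which was the highest knockout library for 8 of the 10 genes, also had the highest sums of T, NK, B and dendritic cell and general leukocyte markers among the knockout libraries. Knockout replicate 1, the lowest library for 5 of the 10 genes, had the highest knockout sums of macrophage, sinusoidal and stellate markers, at 565, 98.5 and 180 FPKM.

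The genes whose levels over the 6 libraries followed the mean profile of the 10 most closely were Cic, Ccdc9, Ift88, Hivep1, Rchy1, Rbm19, Ltbp1 and Siglech, by the root mean square difference of centred log2(FPKM + 1) values. That difference was 0.035 for Cic, a transcriptional repressor, and 0.069 for Siglech, a lectin of plasmacytoid dendritic cells, against 0.10 for H2-D1, the nearest member, and 0.30 for Tap1, the farthest. Cic was at 15.3, 20.5 and 17.1 FPKM in knockout livers and at 21.5, 22.5 and 21.0 FPKM in wild-type livers. The 8 were picked as the smallest values among all other tested genes, so lying below the members follows in part from the choice. Ift88, Hivep1, Ltbp1 and Siglech were at 2.32 FPKM or less in every library, where adding 1 shrinks such differences. Siglech, at 0.53 to 0.85 FPKM in knockout livers, passed the filter through the wild-type libraries alone. None of these 8 genes passed by limma, and no p is attached to the likeness.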

How the data were processed

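RNA-seq of total liver RNA was used from 3 Arid1a knockout and 3 wild-type libraries, grouped by their titles. What the authors deposited is a single log2 FPKM table of 14499 genes. TopHat2 (2.0.6), Cufflinks and the builds mm10 and GRCm38 are named in the submitters' processing notes; no annotation is given in the sources used here. An offset of 0.000977 had been added before the logarithm, so that an FPKM of 0 stands at -10, and was removed: 100% of 60079 values between 1 and 50 then had 6 significant digits (relative tolerance 3e-08), against 0% before.

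FPKM are not counts, so log2(FPKM + 1) was tested by a linear model in limma (version 3.58.1, R 4.3.3; moderated variances with trend, two-sided, Benjamini-Hochberg over 11839 genes with at least 1 FPKM in at least 3 libraries, threshold 0.05). Such differences understate changes of low genes. Differences are knockout minus wild type, and depth is known only relatively, from steps between values under 0.3 FPKM. The fit was tested on simulated data, where it called 44 of 100 genes with a log2 difference of 1 and 96 of 100 with 2. Of 11639 genes simulated without a difference, 10 were called. The simulated noise was normal and independent between genes and libraries, with replicate 1 not set apart. These shares may therefore not hold for the real libraries. Smaller differences, such as those of the members, were not simulated.

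The members and lists were chosen with earlier results of these data known. Named are the 10 members, up to 4 genes per other list with the smallest p (2 for class II and interferon lists), a few fixed genes, and the 8 nearest profiles. Positions are from GENCODE M21 (14453 of 14499 identifiers found) and promoters from RefSeq on GRCm38.p6. Gene spans of Tapbp, Tap2, Psmb8, Psmb10, B2m and Nlrc5 also overlap other annotated genes. Alternatives were the pseudocount (0.1, 5), the filter (none, 5 FPKM), scaling, the variance model, a replicate block, a term for library numbers (L0566 and L0567 against L0602 to L0605), L0602 to L0605 (replicates 2 and 3) alone, and each library left out. Some results are not reported here.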

Additional observations from a re-analysis of the deposited data

Results flagged for a closer look

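Rfxap, Nfya and Psme3 had a knockout minus wild type difference of one sign in replicate 1, with 1 library per group, and of the other sign in replicates 2 and 3, where the groups did not overlap. Tested by limma with an interaction, replicate 1 minus the others, the gap between the effects in log2 units was 1.13 for Rfxap, 0.81 for Nfya and -0.24 for Psme3, and none passed (adjusted p = 0.413, 0.511 and 0.769). In replicate 1, Psme3 was at 26.1 FPKM in the knockout and 26.4 FPKM in the wild-type library, so that its difference there was near 0. None of the 10 class I genes showed this reversal.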

How the results depend on the processing

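Over 17 alternatives the count of class I genes called stayed at 0 in each direction, and 168 of 170 member values were negative; the 2 exceptions were those of B2m without Arid1a_KO_DDC replicate 1 (0.14) and without WT_DDC replicate 2 (0.025). The 3 subunit ratios kept their sign over 9 alternatives. They spanned -0.97 to -0.73 for Psmb9 to Psmb6, -0.55 to -0.27 for Psmb8 to Psmb5 and -0.38 to -0.18 for Psmb10 to Psmb7. The constitutive subunits enter these gaps: over 17 alternatives Psmb6, Psmb5 and Psmb7 had 0.15 to 0.31, 0.063 to 0.24 and 0.13 to 0.26. Over all genes, 16 were higher and 42 lower; the counts were 5 and 7 with no filter, 0 and 0 with the replicate block, 33 higher with the library number term, 26 higher in replicates 2 and 3 alone, and 0 to 30 higher and 0 to 40 lower with 1 library left out. At an unadjusted p under 0.05, limma with the block had 776 genes higher and 942 lower. Deviations of same-numbered libraries correlated at 0.346, 0.133 and 0.0212 across genes. Replicate 1 of each group correlated best with replicate 1 of the other, but knockout replicate 2 correlated best with wild-type replicate 3, at 0.260. Deviations from means of 3 libraries depend on each other, so these values cannot decide whether the numbers pair the samples. The main test used no block. With the block 3 members had an unadjusted p under 0.05 (Nlrc5, Psmb9 and Tap2), against 2 without it, and 0 in replicates 2 and 3 alone or without Arid1a_KO_DDC replicate 3. Signs also turned in replicates 2 and 3 alone for Cd1d1 (0.10), Nfya (-0.10), Rfx5 (0.015) and Rfxap (-0.17), and without WT_DDC replicate 1 for Nfya (-0.03) and Rfxap (-0.12); with 1 library left out the values spanned -0.29 to 0.14 for B2m, -0.03 to 0.31 for Nfya and -0.12 to 0.40 for Rfxap. Of the calls named, those of Cd74, H2-DMa, Isg15 and Ifit1 were lost in replicates 2 and 3 alone (adjusted p = 0.0658, 0.0647, 0.0691 and 0.0619), with no filter, with the block, without Arid1a_KO_DDC replicate 3 (adjusted p = 0.104, 0.104, 0.0795 and 0.0916) and with any 1 wild-type library left out; those of Cxcl9 and Tgtp1 held in replicates 2 and 3 alone and were lost with the block and without some libraries, that of Cxcl9 also with no filter. The cause was not tested. The number of libraries limits the precision: the SE of the member differences was 0.12 to 0.28.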
